A study of Homo sapiens with 9 samples.

Results

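The IFIT genes encode interferon-induced proteins with tetratricopeptide repeats, and 4 of them, IFIT1, IFIT2, IFIT3 and IFIT5, were followed here in ACC-MESO-1 cells, an established human cell line from a pleural mesothelioma, a cancer that starts in the membrane around the lung. The members were taken by gene symbol, and each had 1 transcript cluster (the set of probes that reads a gene) among 21448 clusters tested on the Clariom S array. The cells had been infected with hairpin shLSD1 #1 (replicates 4 to 6), hairpin shLSD1 #2 (replicates 7 to 9) or a control shRNA (replicates 1 to 3). Each group had 3 arrays and all cells came from the same line. Both shLSD1 hairpins target LSD1, an enzyme that strips methyl groups from histones, and the series asks how its suppression bears on the mesenchymal character of these cells. The labels give no hairpin sequence, vector promoter or time after infection, and whether the cultures of 1 group were grown separately is not given. Each p-value therefore measures the spread between arrays, which may be technical. The LSD1 transcript itself is not analysed here, so the depth of the knockdown was not checked. Close relatives in the family can share probe signal, and probe sequences were not used here.

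IFIT proteins are part of the front line against viruses, and they are among the transcripts that type I interferon raises most in many cell types. IFIT1 binds RNA whose cap lacks the methyl group that marks cellular messenger RNA, and so keeps it from being translated. IFIT3 binds IFIT1 and stabilises it, IFIT2 binds AU-rich RNA and has been linked to cell death, and IFIT5 binds RNA that carries a bare triphosphate at its 5′ end. Transcription of these genes runs through ISGF3, a factor that contains IRF9 and binds the interferon-stimulated response element, a pair of TTTC or GAAA blocks in the promoter. Interferon regulatory factors that act after virus sensing bind similar letters.

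The array data were RMA signals on the log2 scale, so a difference of 1 is a 2-fold change. Array medians lay between 6.39 and 6.43, and the limit of the negative control probes (their 95th percentile on each array) lay between 6.93 and 7.54. Of the mesothelial markers, MSLN exceeded this limit on all 9 arrays, whereas 4 of 9, CALB2 among them, stayed under it on every array. Of the markers of other cell types, 4 of 5 for leukocytes (PTPRC, CD3E, CD14 and ITGAM), 3 of 3 for endothelium and 3 of 3 for epithelium were under it throughout. The remaining leukocyte marker, CD68, a lysosomal protein of macrophages and other cells, exceeded it on all 9 arrays. The hybridization spike-ins, transcripts added from outside the cells, averaged 10.8 to 10.9 for all shLSD1 #1 arrays and for replicate 8 of shLSD1 #2 (the low class), and 11.2 to 11.4 for replicates 7 and 9 of shLSD1 #2 and all control arrays (the high class). Spike-in signal thus moved with the shLSD1 #1 group, and calls of named genes and lists that it ends or moves by over 1.5 times are given with that value.

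The promoters are shown first because they carry the letters through which IFIT genes are known to respond. RefSeq windows of GRCh38.p14, from 250 bases before to 50 bases after an annotated start, were at hand for IFIT1, IFIT3 (from 2 starts) and IFIT5, and for IFIT1B, a relative that lies between IFIT3 and IFIT1 and is not among the 4 members. The motif searched was TTTC, 2 bases of any kind and TTTC, together with its reverse complement (GAAA, 2 bases of any kind and GAAA), so that both strands were covered, and with overlapping matches counted. In the sequences below, which run 5′ to 3′ on the plus strand, capitals mark the matches.
IFIT1, chr10:89392477-89392549: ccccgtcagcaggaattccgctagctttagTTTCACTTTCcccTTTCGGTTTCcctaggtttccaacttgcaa
IFIT3, first start, chr10:89327811-89327904: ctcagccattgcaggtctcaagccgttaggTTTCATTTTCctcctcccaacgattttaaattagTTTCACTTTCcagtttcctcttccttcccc
IFIT3, further start, chr10:89332405-89332507: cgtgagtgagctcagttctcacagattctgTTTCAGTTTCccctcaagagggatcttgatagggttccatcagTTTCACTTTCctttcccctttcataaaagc
IFIT5, chr10:89414493-89414577: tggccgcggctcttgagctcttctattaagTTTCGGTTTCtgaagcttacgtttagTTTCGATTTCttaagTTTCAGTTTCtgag
IFIT1B, chr10:89377956-89378055: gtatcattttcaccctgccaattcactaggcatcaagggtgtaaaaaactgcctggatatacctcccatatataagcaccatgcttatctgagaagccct

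IFIT1 held 2 matches, which began 116 and 103 bases before its start. The matches of IFIT3 began 156 and 122 bases before its first start and 94 and 51 bases before the further one. IFIT5 held 3 matches, which began 45, 19 and 4 bases before the start, so that the last of them runs across it. All 4 windows, which came from IFIT1, IFIT3 and IFIT5, held at least 2 matches, and the window of IFIT1B held 0. No window was at hand for IFIT2, so its promoter was not searched. At least 1 match was present in 3.57% and at least 2 in 0.259% of all 35116 promoter windows of this length. Among the other interferon-stimulated genes described below, 29 of 40 genes with a window (72.5%) held at least 1 match and 13 (32.5%) at least 2, against 4.38% and 0.311% of all 27305 genes with a window. A match is a description of letters and does not show that a factor was bound.

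All 4 members were lower with each hairpin. With shLSD1 #1 the fall was between 2.32-fold for IFIT5 and 6.79-fold for IFIT3, and with shLSD1 #2 it was between 2.33-fold for IFIT5 and 8.30-fold for IFIT3. By limma, with Benjamini-Hochberg adjustment across the 21448 clusters, 4 of 4 members passed a threshold of 0.05 in the lower direction in both comparisons, where 7.94% of all clusters did so with shLSD1 #1 and 6.63% with shLSD1 #2. All 4 also passed with at least a 2-fold fall, which 2.16% and 1.92% of clusters did. In all 4 the 3 arrays of a hairpin lay below the 3 control arrays, as in 16.8% of clusters with shLSD1 #1 and 15.3% with shLSD1 #2. Both comparisons use the same 3 control arrays. In bulk RNA, fewer cells expressing a gene and less RNA per cell cannot be told apart.

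IFIT3, the partner that stabilises IFIT1, read 11.70, 12.01 and 12.05 on the shLSD1 #1 arrays and 11.67, 11.46 and 11.76 on the shLSD1 #2 arrays, against 14.64, 14.76 and 14.65 on the control arrays. Every hairpin array lay at least 2.59 below every control array, and the arrays of the hairpins overlapped each other. The change was -2.76 ± 0.13 with shLSD1 #1 (SE, n = 3, limma adjusted p = 3.02e-06) and -3.05 ± 0.13 with shLSD1 #2 (SE, n = 3, limma adjusted p = 1.4e-06). Among all 21448 clusters 22 had a larger fitted fall with shLSD1 #1 and 18 with shLSD1 #2. The falls of clusters under the negative control limit are not measured sizes, so this is an order of fitted changes only.

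IFIT2, the member linked to cell death, read 9.80, 9.91 and 10.00 on the shLSD1 #1 arrays and 9.19, 9.49 and 9.59 on the shLSD1 #2 arrays, against 12.57, 12.34 and 12.43 on the control arrays. The hairpin arrays were all below the control arrays, and the shLSD1 #2 arrays were all below the shLSD1 #1 arrays. In how many of all clusters the hairpins separate in this way was not counted. The difference between the hairpins did not pass (limma adjusted p = 0.48). The change was -2.54 ± 0.14 with shLSD1 #1 (SE, n = 3, limma adjusted p = 4.44e-06) and -3.02 ± 0.14 with shLSD1 #2 (SE, n = 3, limma adjusted p = 1.5e-06).

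IFIT1, which holds back RNA with an unmethylated cap, read 12.22, 12.44 and 12.36 on the shLSD1 #1 arrays and 12.29, 12.23 and 12.13 on the shLSD1 #2 arrays, against 13.94, 13.87 and 13.82 on the control arrays. Hairpin and control arrays did not overlap, and the arrays of the hairpins did. The change was -1.54 ± 0.11 with shLSD1 #1 (SE, n = 3, limma adjusted p = 2.67e-05) and -1.66 ± 0.11 with shLSD1 #2 (SE, n = 3, limma adjusted p = 1.56e-05), a fall of 2.90-fold and 3.16-fold.

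IFIT5, the triphosphate binder, read 8.05, 8.09 and 7.86 on the shLSD1 #1 arrays and 7.98, 7.85 and 8.15 on the shLSD1 #2 arrays, against 9.18, 9.21 and 9.26 on the control arrays. It had the smallest fitted fall of the 4, and its hairpin arrays lay nearest to the negative control limit while still above it on every array. The change was -1.21 ± 0.12 with shLSD1 #1 (SE, n = 3, limma adjusted p = 0.000175) and -1.22 ± 0.12 with shLSD1 #2 (SE, n = 3, limma adjusted p = 0.000169). When the class of spike-in signal entered the fit as a block, the shLSD1 #1 change of IFIT5 was -1.003 and no longer passed (limma adjusted p = 0.0561), whereas the other 3 members still passed at adjusted p between 0.00223 and 0.0104. All shLSD1 #1 arrays are in the low class and all control arrays in the high class, so the block fit learns the effect of class within shLSD1 #2. It gives no separate check of shLSD1 #1, where class and hairpin cannot be told apart. Its SE was also wider (0.209 against 0.12 for IFIT5 with shLSD1 #1), so a call can end there without a smaller change.

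**Figure D1:**
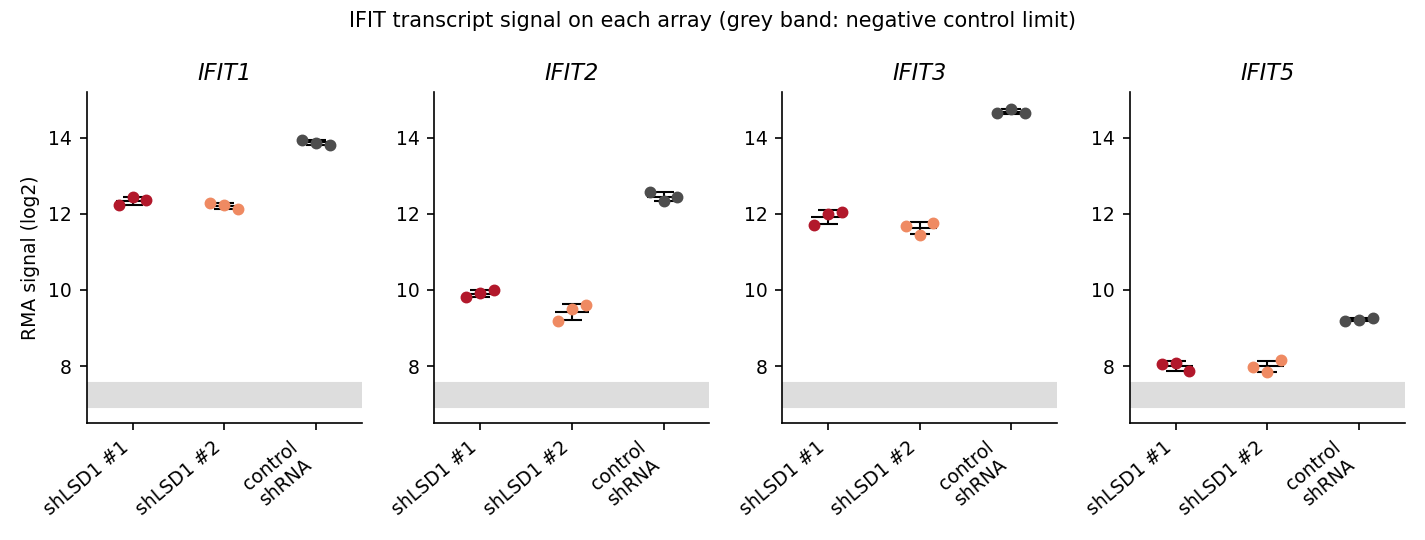
RMA signal (log2) of IFIT1, IFIT2, IFIT3 and IFIT5 on each of the 9 arrays, by group, with the group mean and SD (n = 3) in black and the range of the negative control limit, 6.93 to 7.54, as a grey band. In each panel all 6 hairpin arrays lie below the 3 control arrays and above the band, and heights are not comparable between panels because each gene has its own probes.

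Within the high spike-in class, shLSD1 #2 replicates 7 and 9 against the 3 control arrays, the changes were -2.97 for IFIT3, -3.06 for IFIT2, -1.67 for IFIT1 and -1.15 for IFIT5, at limma adjusted p between 0.000464 and 0.00685. The fall of all 4 members with shLSD1 #2 was thus of about the same size without its array of the low class.

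The signals of the members did not fall by equal amounts. IFIT2 and IFIT3 formed the pair with the larger falls and IFIT1 and IFIT5 the pair with the smaller ones. To test this, the difference between 2 members was taken within each array and compared between the 6 arrays of both hairpins and the 3 control arrays by a two-sided exact permutation test, adjusted over the 6 pairs of members. This treats the hairpins as a single group, since 3 arrays against 3 cannot pass 0.05. The absolute size of such a difference depends on the probes, and only its shift between groups is read. That shift can depend on the probes too, and IFIT5 lay near the negative control limit on the hairpin arrays. The tests therefore compare array signal and do not measure transcript amounts.

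By signal, IFIT1 fell by less than IFIT3. Their difference (IFIT1 minus IFIT3) was 0.31 to 0.77 on the hairpin arrays, against -0.89 to -0.70 on the control arrays. The shift was 1.31 (exact permutation p = 0.0238, adjusted p = 0.0286, n = 6 and 3), with 1.23 for shLSD1 #1 and 1.39 for shLSD1 #2. IFIT1 minus IFIT2 shifted by 1.18, with 2.35 to 3.09 on the hairpin arrays, against 1.37 to 1.53 on the control arrays (exact permutation, adjusted p = 0.0286). Against IFIT5, the shift was -1.69 for IFIT3 and -1.57 for IFIT2, and in both pairs no hairpin array overlapped a control array (exact permutation, adjusted p = 0.0286 each). With shLSD1 #1 and shLSD1 #2 these shifts were -1.55 and -1.83 for IFIT3, and -1.33 and -1.80 for IFIT2.

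The pair of smaller falls also separated. IFIT1 minus IFIT5 was 3.98 to 4.49 on the hairpin arrays, against 4.56 to 4.77 on the control arrays, a shift of -0.38 (exact permutation, adjusted p = 0.0286). IFIT2 minus IFIT3 was -2.48 to -1.90 on the hairpin arrays, against -2.41 to -2.07 on the control arrays, and the shift of 0.12 was within the spread (exact permutation, adjusted p = 0.381). The 5 pairs that passed had the smallest p that 6 against 3 arrays allow, 0.0238, so their order is not resolved by the test. Without control replicate 1, 2 or 3 none of the 5 passed (exact permutation, adjusted p = 0.0857), as 6 arrays against 2 cannot give a p under 0.0714. Within the high spike-in class the shifts of these 5 pairs kept their direction, from -1.91 for IFIT2 minus IFIT5 to 1.39 for IFIT1 minus IFIT2, where 2 arrays against 3 cannot give a p under 0.2.

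**Figure D2:**
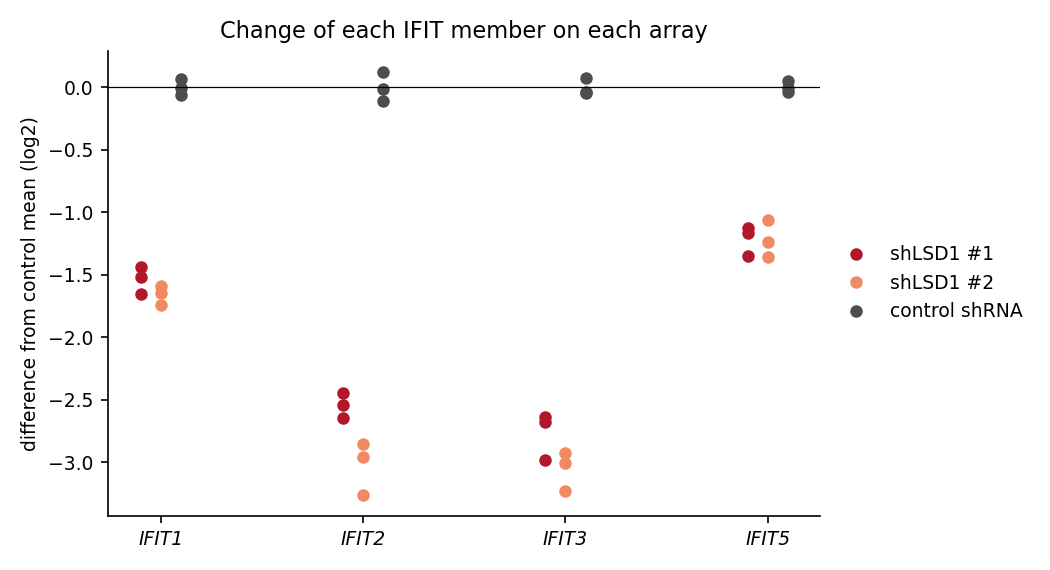
Difference of each array from the control mean (log2) for the 4 IFIT members, with shLSD1 #1, shLSD1 #2 and control shRNA arrays side by side, 1 point per array. The hairpin points of IFIT2 and IFIT3 lie lower than those of IFIT1 and IFIT5, with fitted changes from -3.05 to -2.54 and from -1.66 to -1.21.

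Between the hairpins, no member passed the test, and by limma 0 of 21448 clusters did (1687 had an unadjusted p under 0.05, and 42 passed with a trended robust prior). IFIT2 was 0.48 higher with shLSD1 #1 than with shLSD1 #2 (95% interval 0.18 to 0.78, unadjusted p = 0.00571, limma adjusted p = 0.48). The difference was 0.29 for IFIT3 (95% interval -0.01 to 0.59), 0.12 for IFIT1 (-0.12 to 0.37) and 0.01 for IFIT5 (-0.26 to 0.28). These intervals leave room for differences of up to 0.78 on the log2 scale, so the hairpins are not shown to act alike on the family.

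The IFIT genes lie beside each other on chromosome 10, in the order IFIT2, IFIT3, IFIT1B, IFIT1 and IFIT5, and the neighbouring genes were read too. IFIT1B, which sits among the members, was under the negative control limit on all 9 arrays, with means of 3.61 with shLSD1 #1, 3.73 with shLSD1 #2 and 3.44 with control shRNA. Of the 5 nearest protein-coding genes with a cluster on each side, 10 in all, 2 passed the test with shLSD1 #1 and 1 with shLSD1 #2, where 15.8% and 13.2% of all clusters passed in either direction.

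ACTA2, smooth muscle alpha-actin, was the neighbour that passed with both hairpins, and it was higher. It read at least 16.4-fold higher with shLSD1 #1 and at least 10.9-fold higher with shLSD1 #2, with means of 11.44, 10.84 and 7.11 in shLSD1 #1, shLSD1 #2 and control arrays. The control arrays were under the negative control limit, and they are set to the mean of that limit in these bounds. LIPA, the lysosomal acid lipase gene, has an annotated span that starts before IFIT2 and reaches into IFIT5, so its probes cannot be placed clear of the IFIT genes here. It changed by -0.36 with shLSD1 #1 (limma adjusted p = 0.04) and had -0.20 with shLSD1 #2 (limma adjusted p = 0.263). The shLSD1 #1 call of LIPA ended in the block fit (adjusted p = 0.322) and under 10 other settings.

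The remaining neighbours did not pass. FAS, a death receptor gene, had changes of 0.05 and 0.03 with shLSD1 #1 and shLSD1 #2, STAMBPL1, a deubiquitinase gene, -0.02 and 0.02, and KIF20B, a mitotic kinesin gene, 0.15 and 0.11. RPP30, an RNase P subunit gene, had 0.11 and 0.33. CH25H, SLC16A12, PANK1 and HTR7 were under the negative control limit on all 9 arrays, so a fall there could not have been seen. Apart from LIPA, the neighbours above that limit on any array lay 280593 bases (KIF20B) to 1450977 bases (RPP30) from the IFIT genes. The nearest of those under it throughout, SLC16A12, lay 9302 bases away. The neighbours therefore do not show how far along the chromosome the lower signal reached.

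**Figure D3:**
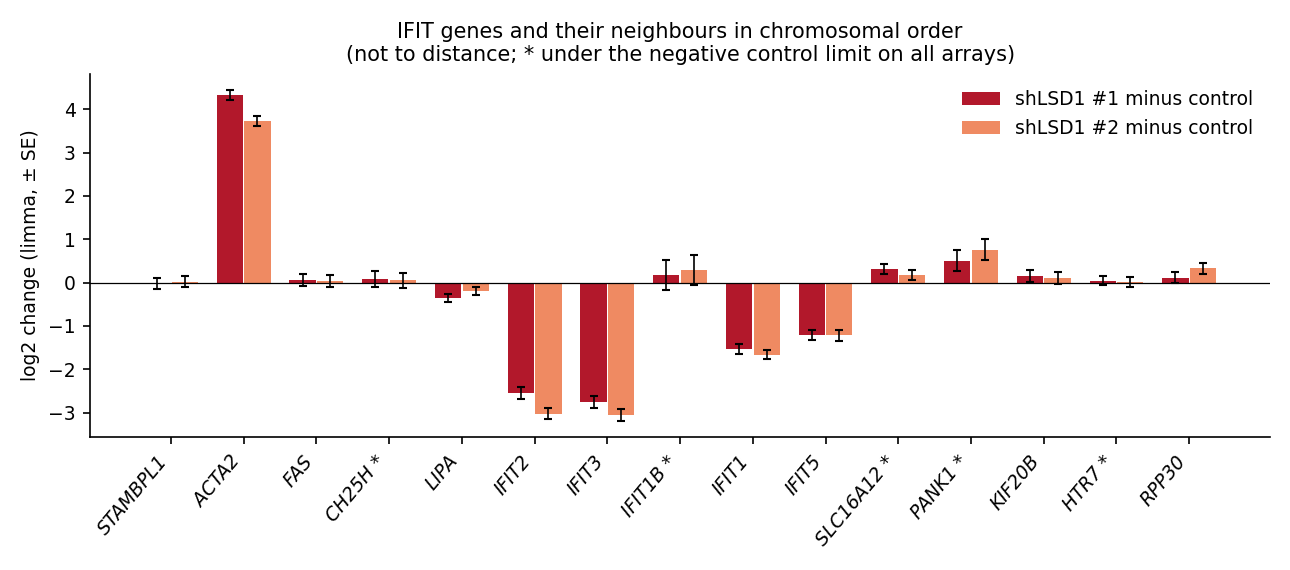
Log2 change by limma (bars, ± SE, n = 3 arrays per group) of the IFIT genes and their nearest protein-coding neighbours, in chromosomal order and not to distance, for shLSD1 #1 minus control and shLSD1 #2 minus control. The 4 members point down, from -1.21 to -3.05, ACTA2 points up with fitted changes of 4.32 and 3.73, and asterisks mark genes under the negative control limit on all arrays.

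The IFIT genes fell as part of a broad set. Of 49 other interferon-stimulated genes, 44 passed as lower and 0 as higher with each hairpin. Of all clusters, 7.94% were lower and 7.85% higher with shLSD1 #1, and 6.63% lower and 6.56% higher with shLSD1 #2. The 49 genes had a median change of -1.76 with shLSD1 #1 and -2.09 with shLSD1 #2, beside 0.03 and 0.02 over all clusters. In the block fit 29 of them were lower with shLSD1 #1 and 42 with shLSD1 #2, where 215 and 969 of all 21448 clusters were. Within the high class 42 of them were lower with shLSD1 #2, where 751 of all 21448 clusters were. Of the 49, 4 were under the negative control limit on all arrays, and with values raised to that limit the medians were -1.74 and -1.88.

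Several effectors fell further than any IFIT gene. OAS1 and OAS2, which make the messenger that activates RNase L, were at least 59.6-fold and 8.98-fold lower with shLSD1 #1 and at least 59.8-fold and 9.01-fold lower with shLSD1 #2. MX1, a GTPase that traps viral components, changed by -6.23 and -6.35, with 1 shLSD1 #2 array under the negative control limit. For the order of the members within the list, genes under the negative control limit in the hairpin arrays were counted only where their bound was past the member's fall, which left 5 of the 49 with no order. IFIT3 had 12 genes falling by more and 32 by less with shLSD1 #1, and 10 and 34 with shLSD1 #2. IFIT2 had 14 and 30 with shLSD1 #1, and 11 and 33 with shLSD1 #2. IFIT1 had 27 falling by more and 17 by less with shLSD1 #1, and 28 and 16 with shLSD1 #2, and IFIT5 had 31 and 13, and 32 and 12. IFIT5 thus stood among the genes of smaller fall, and IFIT2 and IFIT3 among those of larger fall.

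**Figure D4:**
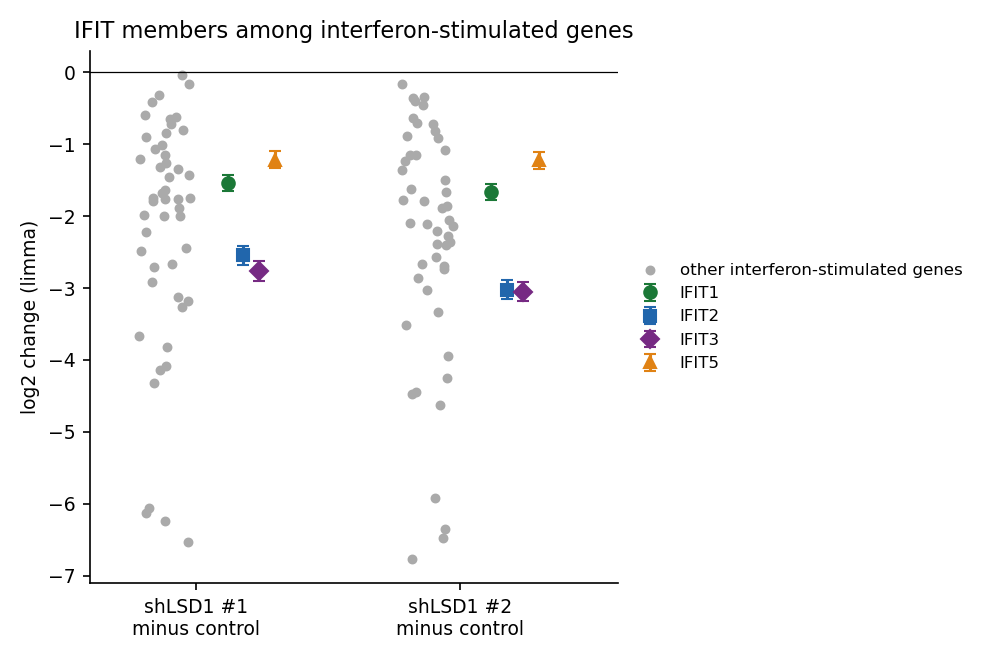
Log2 change by limma of 49 other interferon-stimulated genes (grey points) and of the IFIT members (coloured, ± SE, n = 3 arrays per group), for shLSD1 #1 minus control and shLSD1 #2 minus control. IFIT2 and IFIT3 lie below the list's median of -1.76 and -2.09, and IFIT1 and IFIT5 above it.

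Genes of the interferon pathway were read from 4 further lists. Whether a change there came before or after that of the IFIT genes was not tested. Among ligands, 20 interferon genes had a cluster, all 20 were under the negative control limit on all 9 arrays, and 0 passed by limma in either direction with either hairpin (1 and 2 had an unadjusted p under 0.05 with shLSD1 #1 and shLSD1 #2). Their median changes were 0.097 and -0.012. IFNB1, interferon beta, averaged 4.61 with shLSD1 #1, 4.50 with shLSD1 #2 and 4.52 with control shRNA. Differences in ligand transcripts were therefore not detectable here.

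Of 12 receptor, kinase and feedback genes, 3 passed as lower and 0 as higher with each hairpin, with median changes of -0.056 and -0.11, beside 7.94% and 6.63% of all clusters lower. In the block fit 0 were lower with shLSD1 #1 (limma, with 2 genes at an unadjusted p under 0.05) and 1 with shLSD1 #2. IFNAR1 and IFNAR2, the chains of the type I interferon receptor, did not pass, with changes of 0.45 and 0.42 for IFNAR1 (limma adjusted p = 0.0773 and 0.111) and of 0.01 and 0.01 for IFNAR2. IL10RB, a chain of the type III interferon receptor, changed by -1.22 with shLSD1 #1 and -1.09 with shLSD1 #2, and IFNGR1, a chain of the interferon gamma receptor, by -0.94 and -0.52. In the block fit, the shLSD1 #1 changes were -1.41 for IL10RB and -1.09 for IFNGR1, and both calls ended (limma adjusted p = 0.0884 and 0.0948). The shLSD1 #2 call of IFNGR1 ended there too (-0.57, limma adjusted p = 0.0723), and it ended in 12 settings in all. The feedback inhibitor SOCS3 passed with -0.78 and -0.92 while under the negative control limit on all arrays. Its calls ended in 11 settings with shLSD1 #1 and 6 with shLSD1 #2, the block fit among them (-0.57 and -0.85, limma adjusted p = 0.594 and 0.0817).

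Among transcription factors, 3 of 6 genes with a cluster passed as lower and 0 as higher with each hairpin, with median changes of -0.53 and -0.72, where 7.94% of all clusters were lower with shLSD1 #1 and 6.63% with shLSD1 #2. In the block fit 1 was lower with shLSD1 #1 and 2 with shLSD1 #2, and with values raised to the negative control limit the medians were -0.13 and -0.26. IRF9, the DNA-binding part of ISGF3, averaged 9.79 ± 0.29 on the shLSD1 #1 arrays and 9.69 ± 0.18 on the shLSD1 #2 arrays, against 11.97 ± 0.039 on the control arrays (SD, n = 3). It changed by -2.18 and -2.27 (limma adjusted p = 3.04e-05 and 2.16e-05), a fall between those of IFIT1 and IFIT2. IRF1, a factor that interferon gamma induces, had -1.15 and -1.02, past the test with both hairpins, but not with shLSD1 #1 in the block fit (limma adjusted p = 0.0646). IRF7, which amplifies interferon production, passed while under the negative control limit on all arrays, with changes of -0.81 and -0.93. Its calls ended in 12 settings with shLSD1 #1 and 9 with shLSD1 #2, among them the block fit (limma adjusted p = 0.433 and 0.0757) and, for shLSD1 #2, the high class alone (0.151). IRF3, its relative that responds to virus sensing, was under the limit too and did not pass (limma adjusted p = 0.637 and 0.367).

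The sensing list held 12 genes with a cluster, of which 7 were lower with each hairpin, and 1 with shLSD1 #1 and 0 with shLSD1 #2 were higher, with median changes of -0.82 and -0.57, beside 7.94% and 6.63% of all clusters lower. IFIH1, the RNA sensor MDA5, read 9.99, 9.95 and 9.93 on the shLSD1 #1 arrays and 9.45, 9.49 and 9.48 on the shLSD1 #2 arrays, against 12.44, 12.41 and 12.55 on the control arrays. RIGI, which detects triphosphate RNA, changed by -2.34 and -2.49, and DHX58, the relative of both that lacks a signalling domain, by -2.53 and -2.43. With the block 4 and 5 genes of the list were lower with shLSD1 #1 and shLSD1 #2, and with values raised to the negative control limit the medians were -0.36 and -0.29.

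The profiles closest to each member were sought over the 9 arrays, as the smallest root mean square difference (RMS) between genes in the array values minus the control mean. IFIT2 and IFIT3 differed from each other by an RMS of 0.20, and IFIT1 and IFIT5 by 0.34. Nearest to IFIT2 outside the family was IFIH1 (RMS 0.13), followed by TRANK1, SLC12A8, KLF4 and PLSCR1 (0.18 to 0.23). Nearest to IFIT3 were LYPD3 (0.19), KLF4, IFIH1, IL7R and SLC12A8 (up to 0.23). TRANK1, KLF4 and LYPD3 were under the negative control limit on all 6 hairpin arrays, with means of 5.24 to 5.86. SLC12A8 was under it on all 3 shLSD1 #2 arrays and 1 of 3 shLSD1 #1 arrays, so the distances of these 4 genes rest on values that are not measured sizes.

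Nearest to IFIT1 were ANXA8 (RMS 0.097), IFITM1, PCED1A, THY1 and PARP12 (up to 0.15). IFITM1, an inhibitor of viral entry, averaged 13.30 with shLSD1 #1 and 13.33 with shLSD1 #2, against 14.98 with control shRNA. Nearest to IFIT5 were SLC31A1, the copper importer (RMS 0.058), LPCAT3, UBE2L6, TNFAIP3 and OXSR1 (up to 0.092). UBE2L6, the conjugating enzyme of ISG15, changed by -1.15 with each hairpin. The shLSD1 #1 call of TNFAIP3 (limma adjusted p = 0.00028) ended in the block fit (limma adjusted p = 0.0665). The lists thus hold both interferon-stimulated genes and others, and each distance is a description of these 9 arrays.

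The partners of IFIT proteins in the cell were followed in 2 lists. IFIT1 and IFIT2 are known to bind eIF3, the initiation factor that brings messenger RNA to the ribosome. Of its 13 subunits, 1 was lower and 2 higher with shLSD1 #1 and 0 lower and 2 higher with shLSD1 #2, with median changes of -0.085 and 0.041. Of all clusters, 7.94% were lower and 7.85% higher with shLSD1 #1, and 6.63% lower and 6.56% higher with shLSD1 #2, so 1 of 13 lower is near the share over all clusters. In the block fit 0 passed for either hairpin (limma, with 0 and 3 at an unadjusted p under 0.05). EIF3E, a subunit that these proteins contact, had changes of -0.09 and -0.05 (limma adjusted p = 0.641 and 0.83). EIF3C, whose probes may also read its near-identical copy EIF3CL, had 0.41, which passed with shLSD1 #1, and 0.33, which did not with shLSD1 #2 (limma adjusted p = 0.0268 and 0.0774), and EIF3M rose by 0.43 and 0.48 (limma adjusted p = 0.0432 and 0.0308). The shLSD1 #1 calls of EIF3C and EIF3M ended with the block (limma adjusted p = 0.479 and 0.831), as did the shLSD1 #2 call of EIF3M (0.0989). The calls of EIF3M ended in 10 settings with shLSD1 #1 and 8 with shLSD1 #2, the omission of each control array among them, and that of EIF3C ended in 7.

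The other list held enzymes that make or remove the RNA ends that IFIT proteins read, with 10 genes on the array. With shLSD1 #1, 3 were lower and 1 higher, and with shLSD1 #2, 2 were lower and 1 higher, with median changes of -0.053 and -0.10, against the same shares of all clusters. In the block fit 0 passed with shLSD1 #1 (limma, with 3 at an unadjusted p under 0.05) and 1 was lower with shLSD1 #2. CMTR1, which adds the cap methyl group that shields cellular RNA from IFIT1, changed by -0.65 with shLSD1 #1 and -0.82 with shLSD1 #2 (limma adjusted p = 0.0128 and 0.00472). DUSP11, which trims triphosphates from RNA ends, changed by -0.87 and -0.47 (limma adjusted p = 0.00078 and 0.0221), and RNGTT, the capping enzyme, by 0.45 and 0.52 (limma adjusted p = 0.0417 and 0.0259). With the block, CMTR1 passed with shLSD1 #2 (limma adjusted p = 0.02) and not with shLSD1 #1 (0.323), and neither DUSP11 (0.124 and 0.0768) nor RNGTT (0.681 and 0.0904) passed with either hairpin. Across all settings the calls of RNGTT ended in 9 with shLSD1 #1 and 7 with shLSD1 #2, and the shLSD1 #2 call of DUSP11 in 7.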

How the data were processed

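Total RNA of 9 ACC-MESO-1 samples was hybridized to Clariom S arrays. The authors summarised each array by RMA in Affymetrix Expression Console 1.4, per the submitters' processing notes, and deposited 1 value per probe set on the log2 scale. The log base is taken from the RMA default, and the RMA options are not stated in the labels. Of 24351 probe sets, 2903 controls were set aside, and the other 21448 clusters were tested without a filter. Symbols came from the array's annotation (17709 clusters with 1 symbol, 0 with several, 3739 with none), and for a gene with several clusters the one of highest mean was used.

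Groups came from the sample titles. A single limma fit of the 3 groups (limma 3.58.1, R 4.3.3) gave both comparisons with control and the contrast between hairpins. Differences between members used exact permutation over arrays (scipy 1.17.1). Genes named beside the members were the 3 largest changes of each list among those past the test with both hairpins, 12 fixed genes where analysed, the 5 nearest profiles per member and the nearest neighbours. A group whose arrays were all under the 95th percentile of 612 negative control probe sets was set to that limit in a bound. The members and lists were chosen with earlier results of these data known. The fit was tested on simulated data. Alternatives were other normalizations, a filter, another prior, array weights, fewer groups, raised low values, the spike-in class and omission of each array. Some of these settings overlap. For shLSD1 #2 the spike-in class as a block gives the same fit as omission of replicate 8. Numbers of settings in which a call ended are therefore not numbers of separate checks. Array number limits the precision.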

Additional observations from a re-analysis of the deposited data

How the results depend on the processing

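Across 148 alternative fits of the 4 members against control, all 148 were lower and 147 passed. The exception was IFIT5 with shLSD1 #1 and the spike-in class as a block (-1.003, limma adjusted p = 0.0561). Some settings, such as the filter, the other prior and omission of an array of the other hairpin, leave the estimate unchanged by design. For shLSD1 #2 the block fit and the omission of replicate 8 are the same fit. The 148 fits are therefore not separate checks. The block called 399 clusters with shLSD1 #1, against 3385 without it. The high spike-in class alone called 1450 with shLSD1 #2, on fewer arrays, against 2827. Between the hairpins, a trended robust prior called 42 clusters, against 0. Leaving out 1 array gave 2375 to 3275 calls with shLSD1 #1 and 1918 to 2710 with shLSD1 #2, and without control replicate 2 the higher calls with shLSD1 #2 were 933, against 1406. Subtracting array medians gave 1574 higher and 1815 lower clusters with shLSD1 #1. For pairs of members, leaving out 1 array gave shifts of 1.09 to 1.24 (IFIT1 minus IFIT2), 1.25 to 1.36 (IFIT1 minus IFIT3), -0.44 to -0.32 (IFIT1 minus IFIT5), -1.66 to -1.48 (IFIT2 minus IFIT5) and -1.77 to -1.65 (IFIT3 minus IFIT5). Without any 1 control array these 5 did not pass (exact permutation, adjusted p = 0.0857), since 6 arrays against 2 cannot give a p under 0.0714. In the high spike-in class, an alternative chosen after seeing the data, the same 5 shifts were 1.39, 1.30, -0.52, -1.91 and -1.81 (exact permutation, adjusted p = 0.24). No paired analysis was possible because the groups share no replicate numbers. Signals near the negative controls limit what can be read of interferon ligands, IRF3, IRF7 and SOCS3.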
